A study of Mus musculus with 9 samples.

Results

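The 8 genes described here encode the CD3 chains and the constant regions of the T cell receptor (TCR): Cd3e, Cd3d, Cd3g and Cd247, which encode CD3ε, CD3δ, CD3γ and the ζ chain, and Trac, Trbc1, Trbc2 and Trdc, which encode the constant regions of the TCR α, β1, β2 and δ chains. They were taken by name from the 31053 genes listed in each of 3 single-cell RNA matrices of mouse thymocytes, and all 8 were found there. The choice used names only, no measured value.

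The TCR recognises peptides on MHC molecules through its α and β chains (or γ and δ chains in another lineage), which have no signalling domain of their own. Signals leave through the CD3 chains and ζ, whose cytoplasmic tails carry tyrosine motifs (ITAMs) that the kinase Lck phosphorylates and the kinase Zap70 then binds. In the thymus the β chain is made first and pairs with the pre-TCR α chain. Cells then divide, become CD4+CD8+ double-positive (DP) cells and rearrange the α locus, within which the δ constant gene lies, and those whose receptor is positively selected become CD4 or CD8 single-positive (SP) cells.

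The cells came from the thymus of adult female mice, either wild-type (WT) or carrying the I173A substitution in CD3ε, with no other allele and no treatment named in the labels. Each genotype was stained with its own oligonucleotide-tagged antibody (hashtag), hashtag 4 for WT and hashtag 6 for I173A in the order in which the labels list them, and flow cytometry then separated live cells by their CD4 and CD8 staining into SP and DP gates. Each gate made 1 RNA library, 1 TCR library and 1 hashtag sample, 9 samples in all, so both genotypes of a gate share a library. How many mice were used, whether their cells were pooled, and the strain are not given in the sources used here. Age is stated as adult. Each genotype is therefore 1 sample per gate: no test was possible, no difference has a replicate check, and every interval below is a 95% interval that covers counting error only. Between gates, the library and the cell population cannot be told apart.

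The libraries held 8670 to 9239 barcodes and, after hashtag assignment and filtering, 2516 to 3109 cells per genotype and gate with group medians of 2750.5 to 6079 UMIs (unique molecular identifiers, the count of captured RNA molecules). The gates carried the RNA of their sort: Cd4 was at 371 CPM (UMIs of the gene per 1000000 UMIs of the group) in WT CD4 SP cells and 3.99 in CD8 SP cells, Cd8b1 at 79.7 and 1434, and the recombinase gene Rag1 at 1049 in DP cells. Cells in 3 clusters led by cell division genes are called cycling below. Their share in WT and then in I173A cells was 14.2% and 4.21% for DP, 15.6% and 8.08% for CD8 SP, and 1.77% and 1.73% for CD4 SP. Being rich in RNA, they gave 39.3% of the UMIs of WT DP cells and 13.99% of those of I173A DP cells. The genotype ratios, and gate differences that turn, are therefore also given without cycling cells. Cluster 11, unnamed and led by Ung, E2f1 and DNA replication genes such as Mcm3 and Mcm5, was not counted as cycling. It held 232 WT and 171 I173A cells of the CD8 SP gate and 48 and 18 of the CD4 SP gate. These cells stay in the sets without cycling cells. Between 109 and 124 barcodes were shared by each pair of libraries, of 8670 or more, and no cell was removed for this. Nothing in the counts checks the substitution itself, because Cd3e reads from either allele fall in the same row.

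The sequence that assigns a cell to its genotype is the 15-base barcode of the hashtag antibody, shown because every genotype comparison rests on it, with no bases singled out:
Hashtag 4 (WT): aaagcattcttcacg
Hashtag 6 (I173A): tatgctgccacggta

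The 3 CD3 genes lie side by side on chromosome 9 of the mouse build GRCm38.p6 (RefSeq annotation), Cd3g at 44969572 to 44980431, Cd3d at 44981769 to 44987052 and Cd3e at 44998735 to 45009663. Only 1337 bases separate Cd3g from Cd3d, which are read in opposite directions away from that gap. The sequences before the annotated starts of the 3 genes are shown, 5′ to 3′ on the strand of each gene and ending at the base before the gene, because the levels of these neighbours are set side by side below. Of the 8 genes, 4 were found in the RefSeq promoter table, the genes of the CD3 chains. Capitals mark the letters CANNTG, the core read by E proteins such as Tcf12, on either strand.
Cd3g, chr9:44980432-44980681, minus strand: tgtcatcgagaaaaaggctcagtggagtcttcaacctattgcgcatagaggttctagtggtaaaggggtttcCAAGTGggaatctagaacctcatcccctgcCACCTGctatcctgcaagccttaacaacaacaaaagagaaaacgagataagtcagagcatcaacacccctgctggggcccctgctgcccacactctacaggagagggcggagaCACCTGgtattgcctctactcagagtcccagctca
Cd3d, chr9:44981536-44981768, plus strand: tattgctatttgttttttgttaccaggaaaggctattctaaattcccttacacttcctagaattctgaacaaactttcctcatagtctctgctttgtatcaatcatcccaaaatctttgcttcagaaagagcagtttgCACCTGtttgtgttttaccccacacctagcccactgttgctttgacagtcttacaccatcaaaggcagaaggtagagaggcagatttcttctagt
Cd3e, chr9:45009664-45009861, minus strand: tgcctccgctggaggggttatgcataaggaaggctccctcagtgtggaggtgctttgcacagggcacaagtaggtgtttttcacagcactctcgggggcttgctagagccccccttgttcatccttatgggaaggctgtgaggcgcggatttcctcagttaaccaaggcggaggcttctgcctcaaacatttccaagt
CANNTG was present 3 times in the 250 bases of Cd3g, 1 time in the 233 of Cd3d and 0 times in the 198 of Cd3e. Of 32851 mouse promoter windows of 250 bases, 66.2% held it, so its presence is common. The letters GGAA, the core of ETS factor sites, were found 2, 4 and 4 times in the 3 stretches on either strand and in 93.4% of windows. TATAAA, the letters of a TATA box, were in 0 of the 3 stretches and in 12.4% of windows. The RUNX letters TGTGGT were in 0 of the 3 and in 14.1% of windows. The letters TGACGT, read by CREB and related factors, were likewise in 0 of the 3 and in 6.47% of windows. The Cd3d and Cd3e stretches are shorter than the 250 bases of those windows. Over the full 250 bases, which run into the annotated gene for both, Cd3e held CANNTG 1 time and TGACGT 1 time. GGAA was then found 6 times for Cd3d and 5 times for Cd3e. All letters were searched on both strands. These are matches of letters and not measured sites. The promoter window of Cd247 (chromosome 1, gene at 165779952 to 165871153) lies inside its annotated gene and is not shown.

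Cd3e RNA was abundant in every gate. Among CD4 SP cells it reached 1343 CPM in WT and 1443 in I173A, among CD8 SP cells 1197 and 1440.3, and among DP cells 1366 and 1757. The I173A value was the higher in each gate, and the I173A DP value was the highest of the 6. When cells with at least 1500 UMIs were thinned to 1500, 85.0% to 91.7% of them per group had a Cd3e UMI. This left out the 310 of 2516 WT and 288 of 2706 I173A DP cells with fewer UMIs, and 37 to 69 cells of each SP group. Over all cells, before thinning, the share was 92.1% to 99.1%. A CPM summed over a gate cannot tell fewer expressing cells from less RNA per cell. The usual comparison with a cell type that lacks the gene could not be made, because 81.6% of the 98 thinned macrophage or dendritic cells, at a median of 5102 UMIs, also had a Cd3e UMI.

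Cd3d, whose product pairs with CD3ε, measured 1257 CPM (WT) and 1414 (I173A) in CD4 SP cells, 1033 and 1247 in CD8 SP cells, and 1025 and 1366 in DP cells. Cd3g, whose product forms the other CD3ε pair, was at 1370.4 and 1394, 1243 and 1406, and 975 and 1168 CPM. In WT cells Cd3g was ordered CD4 SP, CD8 SP, DP from high to low, although its CD8 SP to CD4 SP ratio of 0.907 turned to 1.02 when scaled by the median of ratios and to 1.10 without cycling cells, while the Cd3d intervals of CD8 SP (1020.04 to 1047) and DP overlapped. The WT DP to CD4 SP ratio was 0.711 for Cd3g, 0.815 for Cd3d and 1.02 (0.996 to 1.04) for Cd3e. Without cycling cells it was 0.848 for Cd3g, while Cd3d turned to 1.03 (1.01 to 1.06) and Cd3e was at 1.24 (1.21 to 1.27), so the 3 neighbouring genes did not share 1 order over the gates in either set of cells.

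Cd247, the ζ chain gene, was set apart from the other CD3 genes by a low level in CD8 SP cells. Its level was 663 CPM (WT) and 622 (I173A) in CD4 SP cells, 295 and 329 in CD8 SP cells, and 680.0 and 807 in DP cells. The CD8 SP values lie well under all 4 others. The WT ratio of CD8 SP to CD4 SP was 0.445 (0.432 to 0.459), and 0.506 without cycling cells. In I173A cells it was 0.529 (0.512 to 0.546).

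**Figure D1:**
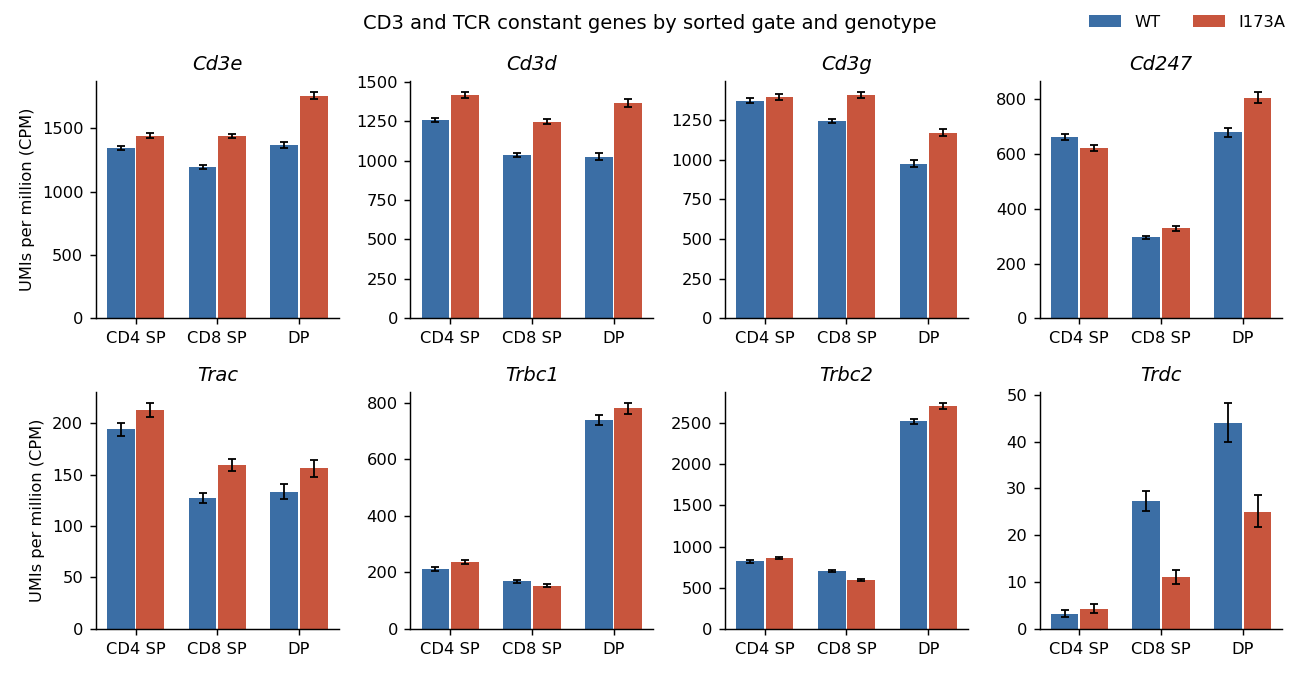
CPM (linear axis from 0, a separate scale per gene) of the 8 genes in CD4 SP, CD8 SP and DP cells, WT in blue and I173A in red, 1 sample per bar with 95% Poisson intervals for counting error. Cd247 is lowest in CD8 SP cells, at 295 and 329 CPM, and Trbc2 highest in DP cells, at 2523 and 2708 CPM.

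The β constant genes Trbc1 (chromosome 6, 41538219 to 41539665) and Trbc2 (41546730 to 41548181) were highest in DP cells. Trbc2 measured 819 CPM (WT) and 858 (I173A) in CD4 SP cells, 703 and 594 in CD8 SP cells, and 2523 and 2708 in DP cells. Trbc1 was at 212 and 236, 169 and 152, and 739 and 780.3 CPM. Both DP values in CPM lie above all 4 SP values for each gene. In WT cells the DP to CD4 SP ratio was 3.08 (3.02 to 3.14) for Trbc2 and 3.49 (3.36 to 3.63) for Trbc1. Against CD8 SP the ratios were 3.59 and 4.37. Without cycling cells they were 3.52 and 4.11 against CD4 SP and 5.24 and 6.39 against CD8 SP.

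Trac, the α constant gene (chromosome 14, 54220521 to 54224198), did not share the DP peak of the β genes. Its level was 194 CPM (WT) and 213 (I173A) in CD4 SP cells, 127 and 159.5 in CD8 SP cells, and 133 and 156 in DP cells. CD4 SP cells were the highest, and the CD8 SP and DP values of WT did not differ beyond their intervals (ratio 1.05, 0.980 to 1.12), although without cycling cells the ratio was 1.13 (1.05 to 1.21). Trdc, the δ constant gene, lies 74412 bases before Trac at 54142851 to 54146108. It was at 3.17 and 4.29 CPM in CD4 SP cells, 27.3 and 11.001 in CD8 SP cells, and 44.0 and 24.9 in DP cells. These are the lowest levels of any gene here, and the DP values lie above the CD4 SP ones in both genotypes. The CD8 SP values also lie above them over all cells but not without cycling cells, where they were 3.15 against 3.22 CPM in WT and 3.15 against 4.19 in I173A.

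Read against all genes, the differences between gates were as follows. Of the 8 genes tested between WT DP and WT CD4 SP cells (at least 200 UMIs over both groups and a mean of at least 20 CPM), 3 lay past 2-fold, namely Trbc1, Trbc2 and Trdc, all higher. Of the 6791 genes tested, 19.8% did so in either direction. Trdc, at 44.0 and 3.17 CPM, reached the mean of 20 CPM only through DP cells, so its call followed from the filter. It did not pass the filter without cycling cells, nor in I173A cells. The median ratio of the 8 genes was 1.02 and that of all genes 1.21 (0.28 on the log2 scale), and against that shift Cd3d (0.815) and Cd3g (0.711) lie further below the typical gene. Between WT DP and WT CD8 SP cells 3 of 8 lay past 2-fold, Cd247, Trbc1 and Trbc2, where 22.7% of 6635 genes did, with medians of 1.38 and 1.33 (0.41 on the log2 scale). Between WT CD8 SP and WT CD4 SP cells 3 of 7 had a ratio 25% or more above 1, or below its inverse, namely Cd247, Trac and Trbc1, all lower. That size was passed by 49.6% of 6286 genes, so the count is near the background, and the medians were 0.822 and 0.906 (-0.14 on the log2 scale). These 3 comparisons share their WT groups.

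The pattern over the 6 groups of gate and genotype was compared between genes by the root mean square difference of centred log2(CPM + 1), over 6629 genes with a mean of at least 20 CPM outside the TCR and immunoglobulin segments. Trbc1 and Trbc2 were 0.10 apart. Cd3e and Cd3d were 0.14 apart, Cd3d and Cd3g 0.17, Cd3e and Cd3g 0.26, and Cd247 lay 0.47, 0.50 and 0.64 from these 3. Among the nearest other genes were Washc5, Slc35c1 and Jtb for Cd3e, Zap70 and Nlk for Cd3d, Vps28, Ddx41 and Ptprcap for Cd3g, and Exoc6b, Gimap9 and Rgs14 for Cd247, at 0.03 to 0.07. Trac was nearest to Add1, Sgk3 and Agap2, and Mvb12b was the nearest of the non-members to both Trbc1 and Trbc2. The nearest to Trdc were the histone genes Hist1h2bk, Hist1h2ao and Hist1h2ag, at 0.13 to 0.17. With 6 points from 3 libraries, and cell cycle content that differs between them, these distances are a description only.

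Comparing genotypes, the CD3 genes were higher in I173A cells in the DP and CD8 SP gates, with smaller ratios in CD4 SP cells; the differences between gates were not tested. In DP cells the I173A to WT ratio was 1.33 (1.30 to 1.37) for Cd3d, 1.29 for Cd3e, 1.198 (1.17 to 1.23) for Cd3g and 1.19 (1.15 to 1.23) for Cd247. In CD8 SP cells the same genes had 1.21, 1.203, 1.13 and 1.11. Genes of immature thymocytes differed between the genotypes in that gate, Ptcra at 32.8 CPM (WT) and 6.12 (I173A) and Rag1 at 26.7 and 7.49, and their part in these ratios was not tested. In CD4 SP cells Cd3d had 1.13 (1.11 to 1.15), Cd3e 1.07, Cd3g 1.02 and Cd247 0.939 (0.915 to 0.963), the only CD3 gene with an interval under 1 in that gate.

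The TCR constant genes were less uniform. Trac had I173A to WT ratios of 1.10 (1.05 to 1.15) in CD4 SP, 1.253 (1.19 to 1.32) in CD8 SP and 1.17 (1.08 to 1.26) in DP cells. Trbc2 had 1.05, 0.844 (0.824 to 0.866) and 1.07, and Trbc1 1.12, 0.900 (0.856 to 0.945) and 1.06, so both were lower only in the CD8 SP gate, a difference between gates that was not tested. Trdc was lower in DP cells, at 0.567 (0.480 to 0.669), and in CD8 SP cells, at 0.403 (0.341 to 0.475). In CD4 SP cells its ratio of 1.36 had an interval of 0.957 to 1.93.

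Without cycling cells most of these ratios moved toward 1. In DP cells Cd3d was then at 1.13 (1.09 to 1.16), Cd3e at 1.12, Cd3g at 1.06, Cd247 at 1.01 (0.973 to 1.05) and Trac at 0.985 (0.907 to 1.07). Trbc1 and Trbc2 turned to 0.926 (0.892 to 0.961) and 0.972 (0.953 to 0.992). Trdc in DP cells was at 0.831, with an interval of 0.644 to 1.07 that held 1, and its mean fell under the 20 CPM needed for testing. In CD8 SP cells Cd3d and Cd3e kept 1.06, Cd3g turned to 0.981 (0.962 to 0.999), Trbc1 to 1.08 and Trbc2 to 1.01, and Trdc was at 1.00 (0.651 to 1.54). The CD4 SP ratios barely moved, with Cd3d at 1.13 and Cd247 at 0.947. Cd3d and Cd3e were thus above 1 in all 3 gates with and without cycling cells.

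**Figure D2:**
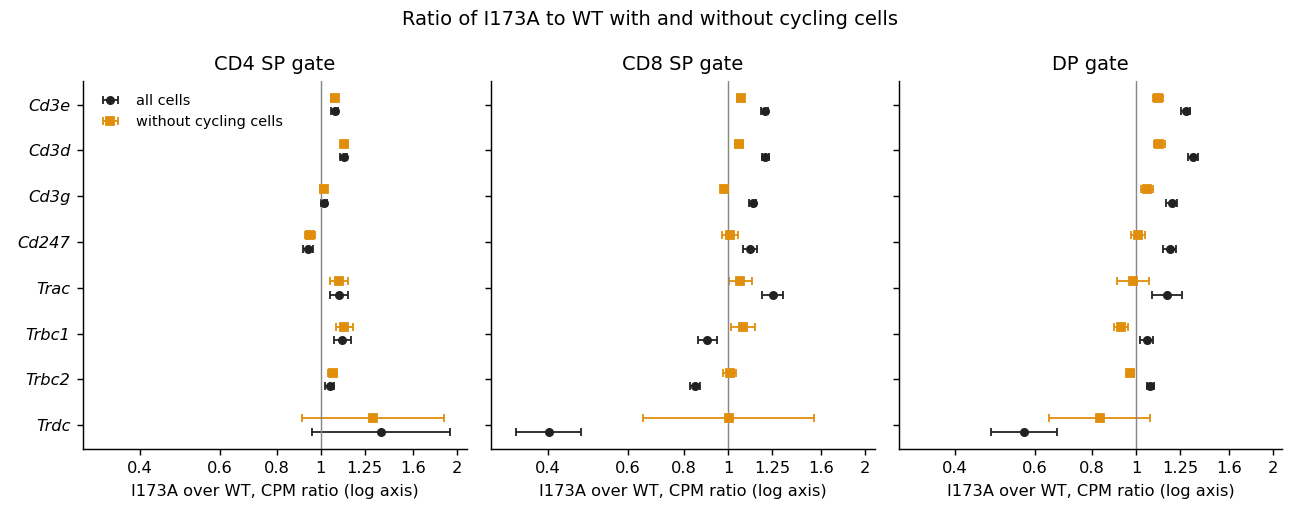
Ratio of I173A to WT CPM on a log axis for the 8 genes in each gate, all cells as black circles and cells outside the cycling clusters as orange squares, 1 sample per genotype, with exact 95% intervals for counting error. The DP ratios of Cd3e and Cd3d move from 1.29 and 1.33 to 1.12 and 1.13 without cycling cells, and the CD8 SP ratio of Trdc from 0.403 to 1.00.

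Counted by the same 25% rule between genotypes, 0 of 7 tested genes were past it in the CD4 SP gate, where 3.08% of 6393 genes did. In the CD8 SP gate it was 1 of 7, Trac at 1.253, where 17.9% of 6084 genes did; this call rests on the edge of the threshold and was lost without the filter on genes and mitochondrial UMIs. In the DP gate it was 3 of 8, Cd3e and Cd3d higher and Trdc lower, where 21.2% of 6911 genes did. The median ratios of the genes described here were 1.07, 1.13 and 1.18, beside 1.02, 1.01 and 1.05 for all genes tested. Without cycling cells 0 of 7 were past it in each gate, where 3.21%, 2.69% and 5.91% of all genes did, and the DP median was 1.01 beside 1.01.

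Within single clusters, each comparing at least 50 cells of each genotype, the I173A to WT ratio of Cd3d was above 1 in 5 of 5 clusters of the CD4 SP gate, 5 of 7 of CD8 SP and 5 of 5 of DP. Their medians were 1.09, 1.05 and 1.12, and the interval lay above 1 in 4, 3 and 3 of the clusters. For Cd3e the counts were also 5 of 5, 5 of 7 and 5 of 5, with medians of 1.07, 1.03 and 1.12. Its interval lay above 1 in 3 clusters of each gate. Cd3g was above 1 in 4 of 5, 3 of 7 and 5 of 5 clusters. The Cd3g interval lay above 1 in 0, 1 and 1 of them, and below 1 in 0, 3 and 0. How many of all genes lay above 1 within clusters was not counted. Cd247 was above 1 in 1 of 5, 4 of 7 and 2 of 5 clusters, and Trbc2 in 2 of 4, 3 of 7 and 1 of 5. These clusters hold cells of the same pair of samples per gate and are not replicates.

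Markers of other cells differed between genotypes in several gates. The 11 macrophage and dendritic genes summed to 134 CPM in WT and 369 in I173A CD8 SP cells, with all 11 detected in both, against 147 and 147 in CD4 SP and 201 and 218 in DP cells. An alternative chosen after seeing the data left out the cluster these genes lead, the low-UMI clusters 9, 14 and 15, and the cycling cluster 16. Cluster 16 had a median of 3541 UMIs and held 106 WT and 26 I173A DP cells. The members past the fold then numbered 0, 1 and 3 in the CD4 SP, CD8 SP and DP gates, as in all cells. The part of the macrophage and dendritic cells in the CD8 SP ratios was not tested beyond that. The 7 B cell genes summed to 441 CPM in WT and 442 in I173A DP cells. Of these, 3 had UMIs in WT, with Cd79a, Ms4a1 and Pax5 among those at 0, and 6 had UMIs in I173A, with only Pax5 at 0. Cd79a had 0 UMIs in WT and 23 in I173A DP cells. The 8 γδ T cell markers summed to 3.46 CPM in WT and 4.50 in I173A DP cells, to 21.03 and 15.3 in CD8 SP cells, and to 9.64 and 13.8 in CD4 SP cells. The 5 erythroid genes summed to 6.28 CPM (WT) and 0 (I173A) among CD4 SP cells. Their part in the ratios was not tested.

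Ordered by stage, the genes differed in where they peaked. Clusters were built without these 8 genes and named from marker genes, over WT and I173A cells together; the names are rebuilt from markers. In the largest rearranging DP cluster, which carries Rag1 and Rag2, Trbc2 was at 3257 CPM. It was at 2719 in the signalled DP cluster, led by Cd24a and holding Egr1, at 1248 in the signalled cluster of mostly CD4 SP cells, and at 652 in the mature cluster with S1pr1. Trbc1 followed with 967, 791, 334 and 165 CPM. Both β genes were thus lower at each later of these 4 clusters. Cluster 15, unnamed, outside this order and with a median of 1158.5 UMIs, was higher than all 4, with Trbc1 at 1109 and Trbc2 at 3431 CPM. The rearranging DP cluster 9, with a median of 1566 UMIs, was also outside this order, with Trbc1 at 216 and Trbc2 at 694 CPM. Cd3e and Cd3d peaked instead in the signalled DP cluster, at 2117 and 1909 CPM, against 1906 and 1508 in rearranging DP cells and 1392 and 1272 in the mature cluster. Trac also peaked there, at 337 CPM, against 174 and 217. Cd247 was at 889, 736, 828 and 583 CPM along the same 4 clusters and at 383 and 318 in the CD8 SP clusters.

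The cycling clusters were not alike. In cluster 7, made of cycling cells of the DP and CD8 SP gates, Cd3e was at 735 CPM, Cd3d at 576 and Trac at 48.7, while Trbc2 was at 1562 and Trdc at 90.5. In cluster 12, made of cycling cells of the SP gates, Cd3e was at 1064, Cd3d at 1031, Trac at 211, Trbc2 at 562 and Trdc at 2.74. Cluster 7 held 300 WT and 70 I173A cells of the CD8 SP gate and 252 and 88 of the DP gate, whereas cluster 12 held 157 and 154 of the CD8 SP gate. The low Trac and high Trdc of the cycling cells therefore belonged to cluster 7 and to cluster 16 (39.3 and 77.0 CPM), not to cluster 12. How far these clusters account for the genotype ratios was not tested beyond leaving them out.

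**Figure D3:**
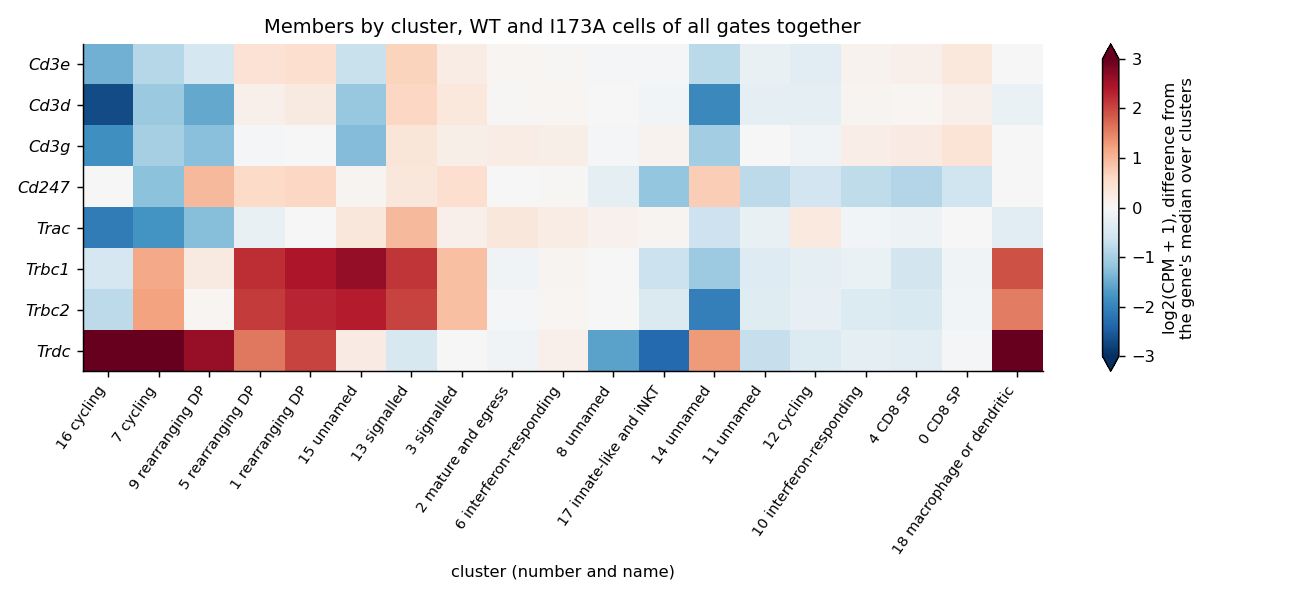
Level of each gene in each of 19 clusters as the difference of log2(CPM + 1) from that gene's median over clusters (red higher, blue lower, colours end at 3), columns ordered by hand from cycling and DP clusters on the left to SP clusters on the right, with macrophage or dendritic cells last. Trbc1 and Trbc2 are high in the rearranging DP clusters 1 and 5 and the signalled DP cluster 13 but not in the rearranging DP cluster 9 (216 and 694 CPM). They are highest in the unnamed cluster 15, at 1109 and 3431 CPM. Trdc is highest in the cycling clusters 7 and 16, at 90.5 and 77.0 CPM.

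The TCR libraries give a reading of the constant genes that does not use the RNA rows. They list assembled TCR contigs, all marked productive, with the V, J and constant segment of each. A β chain joins a J segment of the first cluster to TRBC1 and one of the second to TRBC2, and every contig with a constant gene followed this order. The commonest J segment of the TRBC1 contigs was TRBJ1-1, in 2939 contigs or 31.9% of them.

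Among cells with 1 TRB contig, the share using TRBC1 was 35.1% (WT) and 35.3% (I173A) for CD4 SP and 35.6% and 35.0% for CD8 SP. Among WT DP cells its share was 40.9%, from 786 of 1920 cells (38.7% to 43.2%). Among I173A DP cells it was 36.1%, from 759 of 2104 cells (34.02% to 38.2%). WT DP cells are the group that stands above the other 5, and its interval does not overlap those of the other groups. Without cycling cells the DP shares were 40.8% and 35.5%. Cells of hashtag 5, whose genotype the labels do not give, had 35.05% in DP.

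The RNA rows Trbc1 and Trbc2 did not separate these cells. In WT CD4 SP cells with a TRBC1 contig, 27.9% of the UMIs in the 2 rows fell in Trbc1, and in cells with a TRBC2 contig 13.5%. In WT DP cells the shares were 29.6% and 16.3%. Over the 6 groups they ranged from 26.2% to 29.8% and from 12.4% to 17.6%, so most UMIs of TRBC1 cells sat in the Trbc2 row. The 2 genes are near-identical in their coding sequence. The division of reads between the rows is uncertain and its cause was not tested. The separate Trbc1 and Trbc2 values above should be read together. The sum of the 2 rows was higher in TRBC1 than in TRBC2 cells, at 1382 and 848 CPM in WT CD4 SP cells and 3768 and 3012 in WT DP cells.

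**Figure D4:**
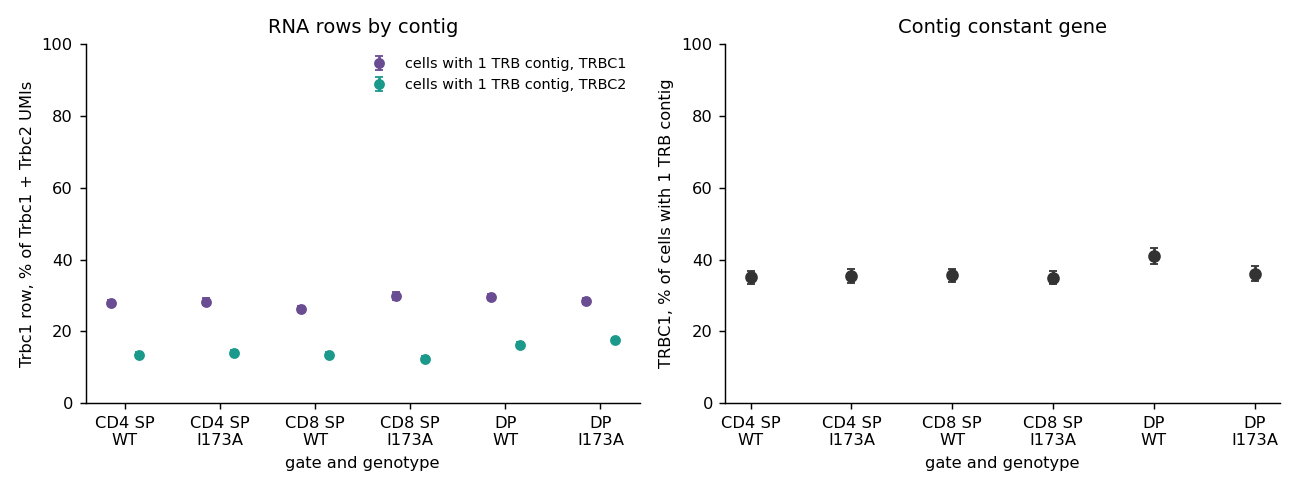
Left, share of the UMIs of the Trbc1 and Trbc2 RNA rows that fell in Trbc1, in cells with 1 TRB contig using TRBC1 (purple) or TRBC2 (green); right, share of cells with 1 TRB contig that used TRBC1, both in percent by gate and genotype with 95% Clopper-Pearson intervals. The left shares stay at 26.2% to 29.8% and 12.4% to 17.6%, and WT DP cells are highest on the right, at 40.9%.

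An α chain contig was found in 89.1% of CD4 SP cells of both genotypes. In CD8 SP cells the share was 78.02% in WT and 82.4% in I173A, an order that turned without cycling cells, at 85.9% and 83.9%. In DP cells it was 27.8% (26.1% to 29.6%) in WT and 35.1% (33.3% to 36.9%) in I173A cells, and 30.8% and 36.2% without cycling cells. A cell without a contig may carry an α chain that was not captured, and DP cells had fewer UMIs, so these shares are lower limits. A β contig was found in 79.3% of WT and 81.6% of I173A DP cells. Cells with a β contig had a median of 21 contig UMIs in WT CD4 SP, 19 in WT CD8 SP and 18 in WT DP cells. In I173A cells the medians were 22, 18 and 17. These medians are per cell and not scaled to the UMIs of the cell. They did not show the DP peak of the Trbc1 and Trbc2 rows, and the cause was not tested.

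Trac and Trdc differed in opposite directions between DP cells with and without an α contig. The contig is assembled from the α transcripts of the same cell, so the split selects for captured Trac RNA and the Trac values are a description only. Trac was at 107 CPM in WT cells without a TRA contig and 214 in those with one, a ratio of 2.01 (1.80 to 2.24), and at 114 and 232 in I173A cells, 2.04 (1.83 to 2.28). Trdc was at 52.6 and 17.9 CPM in WT cells, a ratio of 0.341 (0.245 to 0.465), and at 30.7 and 14.6 in I173A cells, 0.475 (0.334 to 0.664). Joining of a Vα to a Jα segment deletes the δ constant gene from that allele. In cells with 2 or more contigs Trdc had 1 UMI in 57 WT cells and 2 UMIs in 98 I173A cells, too few for a ratio. Without cycling cells the Trac ratios were 1.64 and 1.85 and the Trdc ratios 0.429 and 0.513. Cd3e changed less with the contig, at ratios of 1.06 and 1.05 without cycling cells.

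**Figure D5:**
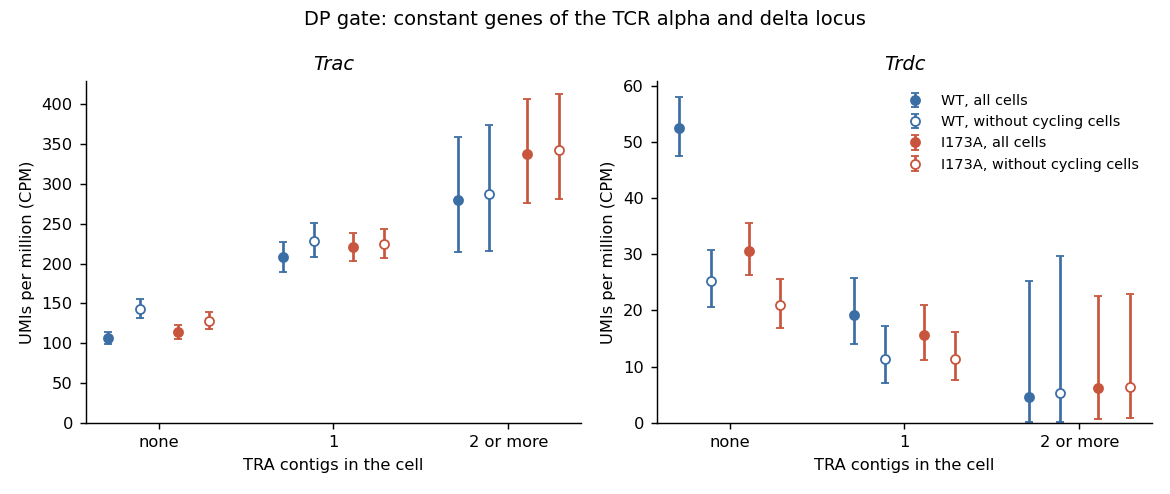
CPM of Trac (left) and Trdc (right) in DP cells with no, 1 or 2 or more TRA contigs, WT in blue and I173A in red, filled points for all cells and open points without cycling cells, with 95% Poisson intervals. Trac rises from 107 to 208 CPM between WT cells with no and 1 contig, and Trdc falls from 52.6 to 19.2.

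The Trdc UMIs of the CD8 SP gate and of WT DP cells lay mostly in cycling cells, and those of both gates mostly in cells without an α contig. In the WT CD8 SP gate 92.5% of its 615 UMIs lay in cycling cells, which were 15.6% of cells and 35.2% of UMIs, and 89.1% in cells without a TRA contig. In WT DP cells 71.9% of 445 UMIs lay in cycling cells and 89.9% in cells without a TRA contig. The I173A shares in cycling cells were 76.3% of 194 UMIs in CD8 SP and 41.7% of 216 in DP cells. In CD4 SP cells only 3.08% of 65 WT and 6.94% of 72 I173A UMIs lay in cycling cells, and 18.5% and 22.2% in cells without a TRA contig. Outside cycling cells Trdc was at 3.15 CPM in both WT and I173A CD8 SP cells, and at 20.4 and 16.9 in DP cells. No cell was called γδ from Trdc alone.

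With and without the contig, the genotype ratio of Cd3e and Cd3d in DP cells outside the cycling clusters stayed above 1. In cells without a TRA contig Cd3e measured 1656 CPM (WT) and 1857 (I173A), 1.12 (1.09 to 1.16), and in cells with one at 1760 and 1949, 1.11 (1.06 to 1.15). Cd3d had 1.11 (1.07 to 1.15) and 1.13 (1.08 to 1.19). Trbc2 had 0.961 (0.937 to 0.985) in cells without a contig and 0.989 (0.957 to 1.02) in cells with one.

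Genes that act with the receptor were counted from lists, to be read against the shares of all genes past the same rule (3.08% for the CD4 SP gate, 17.9% for CD8 SP, 21.2% for DP). Of 26 coreceptors, proximal kinases and adaptors, 25 were tested in the CD4 SP gate, 1 higher in I173A past the 25% rule and 0 lower. That gene was Cd8a, at 27.9 and 40.4 CPM. In CD8 SP 5 of 24 were higher and 0 lower, led by the phosphatase Ptpn22 (69.1 and 98.4 CPM, 1.42) and the Tec kinase Txk (1.32). In DP 5 of 26 were higher and 0 lower, led by Tespa1 (267 and 365 CPM, 1.37) and Plcg1 (1.35). Without cycling cells 0 of 23 and 0 of 26 were past the fold in CD8 SP and DP cells. The lowest ratio of this list in CD4 SP cells was that of Lck, the kinase that phosphorylates the CD3 tails, at 939 CPM in I173A and 1068 in WT, 0.879 (0.861 to 0.897).

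Of 14 complex partners and turnover genes, 0 of 12 in CD4 SP, 1 of 11 in CD8 SP (Ubash3b, 1.55) and 2 of 11 in DP cells (Laptm5, 1.28, and the ubiquitin ligase Cblb, 1.26) were higher past the rule, and 0 lower. In DP cells 0 of 11 were past it without cycling cells, with Laptm5 at 1.05 and Cblb at 1.22. In CD8 SP cells 1 of 12 was then still past it, Ubash3b at 1.26 (1.08 to 1.46), where 2.69% of all genes were. Laptm5 encodes a lysosomal protein that promotes loss of the ζ chain, and was at 808 and 1035 CPM in DP cells. A list of 14 transcription factors was drawn up for the TCR and CD3 loci, and their binding was not measured here. Of these, 5 of 13 were lower in I173A CD8 SP cells, among them E2f2 (0.437) and Myb (0.462), and 1 higher, Runx3 (1.35). In DP cells 1 of 13 was lower, E2f2 (0.530). Without cycling cells 0 of 12 and 0 of 13 were past the rule. Between WT DP and CD4 SP cells, Ptcra, the pre-TCR α chain, was at 86.3 against 0.828 CPM and Themis at 935 against 141. Fyn, a kinase related to Lck, was lower in DP, at 83.7 against 312.

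The 5 other ITAM or activating adaptors gave 2 genes tested in CD8 SP and in DP cells, both higher in I173A in each. These were Hcst, which encodes the adaptor DAP10, at 52.6 CPM in WT and 101 in I173A DP cells (1.93, 1.73 to 2.15), and Cd79b, a B cell receptor chain, at 37.4 and 56.9 (1.52, 1.33 to 1.75). Without cycling cells Hcst in DP was at 1.62 (1.44 to 1.83) and Cd79b at 1.19. In CD8 SP cells 0 of 2 were then past the rule, with Hcst at 1.05 and Cd79b at 1.16. Of the 4 γ constant genes 0 reached the level needed for testing in any gate.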

How the data were processed

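The authors deposited raw UMI counts per gene and barcode with hashtag counts in the same matrices, for which the submitters' processing notes name Cell Ranger 6.0.1 and the build GRCm38; the matrices state software version 3.1.0, per the file headers. The deposited TCR tables give contigs with a count of UMIs for each. A barcode was given a hashtag when that hashtag had 10 or more counts and 4 times any other. Barcodes with several hashtags (4.24% to 6.27%) were left out as doublets, and doublets within a genotype remain. Kept cells had 500 or more detected genes and no more than 10% of UMIs from mitochondrial genes. Sums of UMIs per gate and genotype were scaled to CPM, with exact Poisson intervals; ratios carry exact conditional and shares Clopper-Pearson intervals (95%), checked on simulated data. Cells were clustered with Scanpy 1.11.5 and leidenalg 0.10.2 at 30 components, 15 neighbours and resolution 1, without TCR and immunoglobulin genes or members. The members and lists were chosen with earlier results of these data known. Named genes are the members, the 3 nearest by pattern, and up to 2 highest and 2 lowest per list. The 5′ kit reads start at the transcript's 5′ end, so constant gene rows miss reads that fall in V segments. Alternatives left out cycling cells, changed the cell filter, hashtag rule, floor and scaling, used per-cell means, thinned cells, or raised the contig minimum. Leaving out clusters 9, 14, 15 and 16 and the macrophage or dendritic cluster was chosen after seeing the data. Some items are not reported here.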

Additional observations from a re-analysis of the deposited data

Results flagged for a closer look

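Some ratios of I173A to WT had intervals on opposite sides of 1 in different gates; the difference between gates was not tested, and each gate has 1 sample per genotype. Over all cells, Cd247 was lower in I173A CD4 SP cells, at 0.939, and higher in CD8 SP and DP cells, at 1.11 and 1.19. Trbc1 was lower in CD8 SP cells, at 0.900, and higher in CD4 SP and DP cells, at 1.12 and 1.06. Trbc2 was lower in CD8 SP cells, at 0.844, and higher in the other gates, at 1.05 and 1.07. Without cycling cells Cd3g was at 0.981 in CD8 SP and 1.06 in DP cells. Trbc1 was then at 0.926 in DP cells against 1.13 in CD4 SP and 1.08 in CD8 SP cells, and Trbc2 at 0.972 in DP against 1.06 in CD4 SP cells. The gate in which the β genes were lower thus changed from CD8 SP to DP.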

How the results depend on the processing

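No paired analysis was possible because each genotype is 1 sample per gate and the labels carry no replicate numbers. The number of members past the 25% rule between genotypes was 0 in each gate without cycling cells. In CD8 SP it was also 0 with no filter on genes or mitochondrial UMIs, with scaling by the median of ratios, with the mean of per-cell CPM and with cells thinned to 1500 UMIs, and 2 with no CPM floor. In CD4 SP it was 1 with no CPM floor. In DP it was 1 with the mean of per-cell CPM and 0 after thinning, which leaves out cells under 1500 UMIs. Leaving out cycling cells turned the genotype ratio of Cd3g (0.981), Trbc1 (1.08), Trbc2 (1.01) and Trdc (1.00) in CD8 SP and of Trac (0.985), Trbc1 (0.926) and Trbc2 (0.972) in DP. Trbc1 in DP also turned with the median of ratios (1.00), the mean per cell (0.967) and thinning (0.985), as did Trac with the mean per cell (0.977) and Trbc1 in CD8 SP after thinning (1.02). Between WT gates, without cycling cells, DP to CD4 SP turned for Cd3d (1.03), and CD8 SP to CD4 SP for Cd3e (1.06), Cd3g (1.10) and Trdc (0.978). CD8 SP to CD4 SP also turned for Cd3e and Cd3g with the median of ratios (1.00 and 1.02), the mean per cell (1.01 and 1.05) and thinning (1.01 and 1.05). DP to CD8 SP turned for Cd3e when scaled without mitochondrial, ribosomal and TCR genes (0.979) and with the median of ratios (0.857). In DP cells the ratio with over without a TRA contig was 0.506 for Trdc and 2.39 for Trac in WT and 2.54 for Trac in I173A with contigs of at least 5 UMIs. After thinning it was 1.79 for Trac in WT and 0.739 for Trdc in I173A, and without cycling cells 1.64 for Trac in WT. The cause was not tested. The other 68 counts, shares and ratios of the main comparisons stayed within 1.5 times or within their interval. Of the single gene ratios, 205 stayed within their interval and 155 left it without being counted as turned, which needs an interval that did not hold 1. Among these, Cd3d from DP to CD8 SP went from 0.992 to 1.05 without cycling cells. Depth limits Trdc most, with 65 and 72 UMIs in CD4 SP cells.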

Other observations

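Cells of hashtag 5, for which the labels give no genotype, numbered 2829, 2745 and 2765 in the CD4 SP, CD8 SP and DP gates and entered no comparison between genotypes. Their Cd3e was at 1321, 1244 and 1448 CPM, Cd247 at 594, 272 and 731, Trbc2 at 779, 635 and 2343, and Trdc at 4.27, 21.4 and 40.3. The low Cd247 of CD8 SP cells was also present in them, at a CD8 SP to CD4 SP ratio of 0.458 (0.443 to 0.473).

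The CD3 genes did not vary together in 2 of the 3 clusters of lowest UMI count. In cluster 9, a rearranging DP cluster with a median of 1566 UMIs, Cd3d was at 426 CPM and Cd247 at 1151, against 1508 and 889 in the largest rearranging DP cluster. In cluster 14, unnamed, with a median of 1636 UMIs, they were at 327 and 968. In cluster 15, also unnamed and lowest at 1158.5 UMIs, both were lower, at 564 and 619. The nuclear RNA Malat1, chosen after its values were seen, was at 41392, 40182 and 30225 CPM in clusters 9, 14 and 15 and at 10024 in the largest rearranging DP cluster. The median mitochondrial share was 2.90%, 4.35% and 4.72% against 1.77%. Both measures were thus also raised in cluster 15, where Cd247 was lower. Their part in the Cd247 values was not tested. In the innate-like and iNKT cluster of 110 cells Trdc had 0 UMIs, and Cd247 was at 261 CPM.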
